A study of Mus musculus with 5 samples.

Results

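Zic1, Zic2 and Zic4 are 3 of the mouse genes of the Zic family, which encode zinc finger transcription factors, and their signals were compared between whole embryos without and with the folate receptor gene Folr1. The genes were picked by name, with earlier results of these arrays known, and every probe set annotated to only 1 of the 3 symbols was taken. That gave 4 of the 20380 probe sets with a single gene symbol (1 each for Zic1 and Zic2, 2 for Zic4), and 3 of 12393 genes. Since the picking drew on the same comparison, the differences of these 3 genes between the groups are given as a description, without a test. Zic5, a further family member on the array, and the genes around the Zic factors were tested. They too were chosen with earlier results known.

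The arrays labelled Folr1-/- held 2 samples and those labelled Folr1+/+ held 3, all from C57BL6J embryos on gestation day 9.5, with 1 array per sample. The Folr1-/- embryos came from Folr1+/- dams mated with Folr1+/- sires, and the dams ate a folate-supplemented diet for 2 weeks before mating and through gestation. The labels do not give the diet of the Folr1+/+ dams, so an effect of diet and one of genotype cannot be told apart. Whether a sample was 1 embryo or a pool, or whether samples shared a litter, is not stated, so the spread between arrays may be partly technical.

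Zic factors bind DNA through zinc fingers that resemble those of the Gli proteins, the transcription factors of the hedgehog pathway. In the mouse embryo they are made in the dorsal neural tube, in neural crest precursors and in the dorsal somites. They are known for keeping neural precursors dividing and for shaping the cerebellum, the forebrain midline and the closing neural tube. Loss of Zic2 function causes holoprosencephaly, a failure to divide the forebrain, in mice and humans, and loss of Zic1 together with Zic4 disturbs cerebellar growth. Zic1 and Zic4 lie next to each other on chromosome 9, and Zic2 and Zic5 next to each other on chromosome 14, per the gene order of assembly GRCm38.p6.

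The promoters of Zic1 and Zic4 are shown because these neighbours start 3204 bases apart on opposite strands, and that of Zic5 because its signal fell. Zic4 was too dim to compare its change with that of Zic1, and no link between the sequences and the signals was tested. The sequences are from RefSeq (GRCm38.p6) and run 5′ to 3′ on the gene's strand, from 250 bases before the start site to 50 bases after it. Capitals mark matches on either strand to 6 motifs. These are the E-box CACGTG, the CCAAT box, the GC box GGGCGG and the TATA box TATAAA, the core GACCACCC of the Gli site, which Zic proteins also bind, and the core CAGCAGG of Zic binding. The 3 windows lie at chr9:91365719-91366018 (minus strand), chr9:91368722-91369021 (plus strand) and chr14:122465609-122465908 (minus strand).
Zic1: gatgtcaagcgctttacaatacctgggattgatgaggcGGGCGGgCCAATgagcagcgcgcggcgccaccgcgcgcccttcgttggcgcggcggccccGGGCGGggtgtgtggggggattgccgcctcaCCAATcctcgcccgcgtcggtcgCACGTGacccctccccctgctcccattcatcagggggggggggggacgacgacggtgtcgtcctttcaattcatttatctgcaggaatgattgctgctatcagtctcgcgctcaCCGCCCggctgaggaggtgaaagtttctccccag
Zic4: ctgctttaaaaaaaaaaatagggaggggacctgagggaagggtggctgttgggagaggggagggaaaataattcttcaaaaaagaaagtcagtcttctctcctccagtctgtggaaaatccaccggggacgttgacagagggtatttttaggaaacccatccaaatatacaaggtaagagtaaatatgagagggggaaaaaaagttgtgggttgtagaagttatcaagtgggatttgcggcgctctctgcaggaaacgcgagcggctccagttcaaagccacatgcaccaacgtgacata
Zic5: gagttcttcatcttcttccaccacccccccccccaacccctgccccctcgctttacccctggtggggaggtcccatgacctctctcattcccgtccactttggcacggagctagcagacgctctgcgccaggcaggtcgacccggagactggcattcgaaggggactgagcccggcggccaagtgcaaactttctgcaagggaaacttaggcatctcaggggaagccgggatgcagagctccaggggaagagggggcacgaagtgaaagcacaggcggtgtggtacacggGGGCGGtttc
The Zic1 window held 1 E-box, 2 CCAAT boxes and 3 GC boxes, the Zic5 window held 1 GC box, and the Zic4 window held none of the 6 motifs. The Gli core, the Zic core and the TATA box were in none of the 3 windows, and no match overlapped another. Among all 32851 promoters of this length, 7.15% held the E-box, 37.4% the CCAAT box, 35.7% the GC box, 13.6% the TATA box, 10.5% the Zic core and 0.807% the Gli core. G and C made up 65.3% of the Zic1 window, 46% of the Zic4 window and 62.7% of the Zic5 window.

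Signals are MAS5 values on a linear scale, scaled by the authors to a common trimmed mean near 150.1 on every array. Detection calls were not used here, so the level of a silent gene was read from 18 genes of adult testis, retina, mammary gland, kidney and pituitary, among them the protamine and casein genes. Their 30 probe sets had a median signal of 6.12 and 4.79 on the Folr1-/- arrays, against 5.93, 6.56 and 8.35 on the Folr1+/+ arrays. Their highest signals were 37.9 and 33.3 on the Folr1-/- arrays, against 36.1, 49.4 and 49.8 on the Folr1+/+ arrays, all from the retinal gene Rbp3. Levels of different Zic probe sets are not set against each other, since probe sets differ in how they bind their targets.

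Zic1, which acts in the dorsal neural tube and the cerebellum, had signals of 9.40 and 7.70 on the Folr1-/- arrays (1423477_at), against 136, 166 and 173 on the Folr1+/+ arrays. Both Folr1-/- signals lay far below all 3 Folr1+/+ signals, and the arrays of each group were close to each other. The Folr1-/- mean was 8.55 ± 1.21 (SD, n = 2), against a Folr1+/+ mean of 158 ± 19.7 (SD, n = 3), so the Folr1-/- mean was 5.40% of the Folr1+/+ mean. On the Folr1-/- arrays 11 and 13 of the 30 low-signal probe sets were as bright as Zic1 or brighter, and on each Folr1+/+ array 0 were. Zic1 was thus at the level of the low-signal genes in the Folr1-/- arrays, so the ratio of the means is not a measure of its RNA content.

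On the log2(signal + 16) scale, in which 16 is added to damp noise of dim probe sets, the Zic1 difference (Folr1-/- minus Folr1+/+) was -2.82. It was -4.06 with 1 added and -1.61 with 64 added. Of 7436 genes bright enough to test, 3 had a more negative difference than Zic1: the embryonic globin genes Hbb-y and Hbb-bh1 and the Y-linked Eif2s3y. This place among the genes moved with the added value: Sox10 was more negative than Zic1 with 1 added (-4.35), and Hba-x (-1.66) and Nr2f1 (-1.63) were with 64 added. Signals of the groups did not overlap in 46.7% of the tested genes, with 24.2% lower and 22.5% higher in the Folr1-/- arrays. A log2 difference of -1 or below was found in 1.37% of them.

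**Figure D1:**
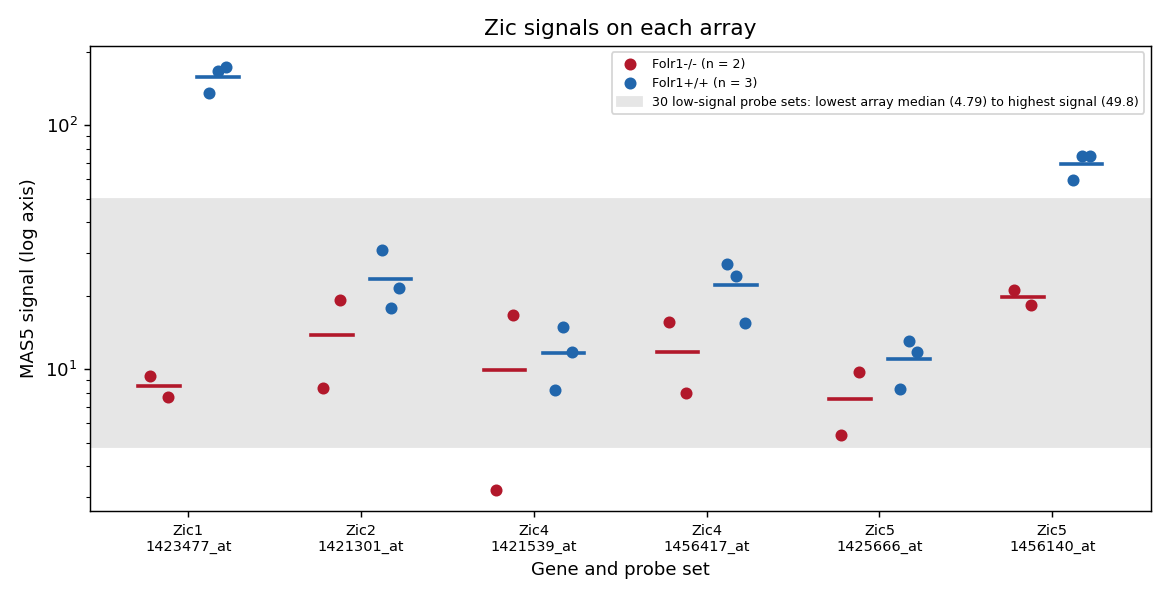
MAS5 signal (log axis) of each Zic probe set on each array, with Folr1-/- (red, n = 2) left of Folr1+/+ (blue, n = 3), group means as bars, and in grey the range from the lowest array median (4.79) to the highest signal (49.8) of 30 low-signal probe sets. Zic1 and Zic5 (1456140_at) lay above the grey range in the Folr1+/+ arrays and within it in the Folr1-/- arrays, and no signal of Zic2 or Zic4 lay above it.

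Zic2, the holoprosencephaly gene, was dim on all 5 arrays. Its probe set 1421301_at had signals of 8.36 and 19.3 on the Folr1-/- arrays, against 30.8, 17.9 and 21.6 on the Folr1+/+ arrays. The groups overlapped, since Folr1-/- replicate 2 lay above Folr1+/+ replicate 2. The Folr1-/- mean was 13.8 ± 7.75 (SD, n = 2), against a Folr1+/+ mean of 23.4 ± 6.69 (SD, n = 3). The log2 difference of -0.41 was close to the spread of 0.38 (SD) between the Folr1-/- arrays, and leaving out Folr1-/- replicate 1 or 2 gave -0.14 or -0.68. On every array at least 1 of the low-signal probe sets was as bright as Zic2, with 12 and 2 of 30 on the Folr1-/- arrays and 1, 4 and 5 on the Folr1+/+ arrays.

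Zic4, the divergent neighbour of Zic1, was dim on both of its probe sets. The brighter probe set, 1456417_at, had signals of 15.6 and 8.01 on the Folr1-/- arrays, against 27.0, 24.1 and 15.5 on the Folr1+/+ arrays. The groups overlapped narrowly, Folr1-/- replicate 1 lying just above Folr1+/+ replicate 3. The log2 difference was -0.46, and leaving out Folr1-/- replicate 1 or 2 gave -0.66 or -0.26. The second probe set, 1421539_at, had signals of 3.20 and 16.8 on the Folr1-/- arrays, against 8.24, 14.8 and 11.8 on the Folr1+/+ arrays, with a log2 difference of -0.13. Here Folr1-/- replicate 2 was the highest array and Folr1-/- replicate 1 the lowest, the opposite order to that in the brighter probe set. On the brighter probe set 3 and 13 of the 30 low-signal probe sets matched or passed Zic4 in Folr1-/-, against 1, 3 and 7 in Folr1+/+. The signals of Zic2 and Zic4 lay within the range of the low-signal genes on all arrays, which does not show that their RNA was equal in the groups. The top of that range is Rbp3 alone. On Folr1+/+ replicate 1 only Rbp3 was as bright as Zic2 or Zic4 (1456417_at), and the 90th percentile of the low-signal probe sets was 13.8.

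Both genes lay under the minimum brightness for testing, the 40th percentile of mean log2 signal over genes. Zic2 stood at percentile 30.8 and Zic4 at percentile 29.3, and Zic1 at percentile 52.7. Of the 3 genes, only Zic1 had a signal above every low-signal probe set, Rbp3 included, in any group. The filter kept 1 of the 3, beside 7436 of 12393 genes in all. Zic1 passed it through its Folr1+/+ signals, at percentiles 72.4 to 76.7 of the single-symbol probe sets. On the Folr1-/- arrays it stood at percentiles 23.5 and 21.5.

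Zic5, the neighbour of Zic2 and a factor needed for neural crest formation and neural tube closure in mice, fell in the Folr1-/- arrays. Probe set 1456140_at had signals of 21.1 and 18.3 on the Folr1-/- arrays, against 59.5, 74.7 and 74.6 on the Folr1+/+ arrays. The groups were well apart, and the Folr1-/- signals were matched or passed by 2 of the 30 low-signal probe sets on either array, the Folr1+/+ signals by 0. The log2 difference of -1.26 ± 0.20 (SE) passed the limma test (adjusted p = 0.00145 over 7436 genes). Its Folr1+/+ signals carried Zic5 over the brightness filter. They stood at percentiles 58.6 to 63 of the single-symbol probe sets, against 39.5 and 37.8 on the Folr1-/- arrays. Zic5 was also picked with earlier results of these arrays known, so the test is not independent evidence. Over the alternatives in which Zic5 was bright enough to test, the adjusted p ranged up to 0.0213. Its second probe set, 1425666_at, was dim throughout, with signals of 5.37 and 9.79 on the Folr1-/- arrays, against 8.29, 13.1 and 11.8 on the Folr1+/+ arrays, and these overlapped.

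**Figure D2:**
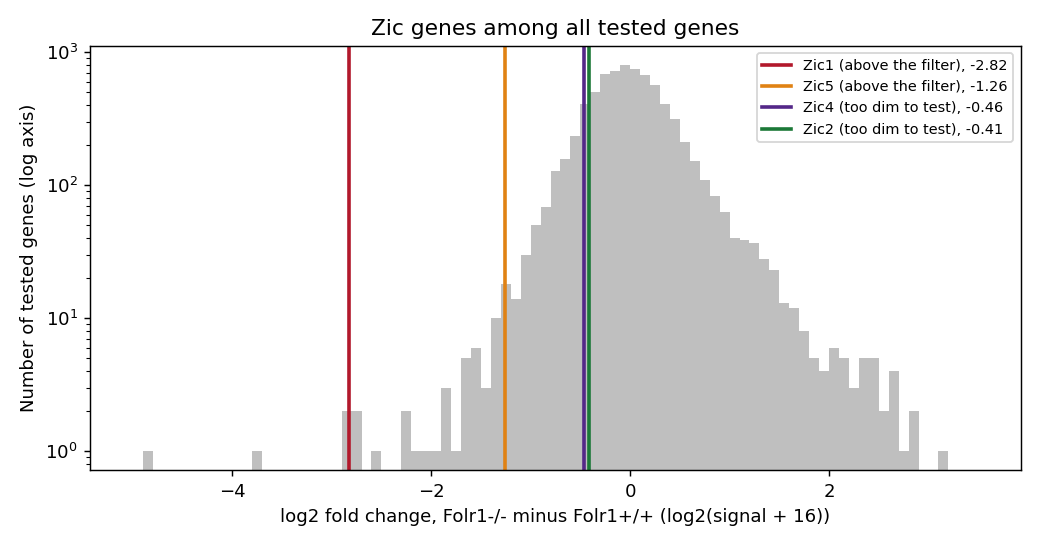
Histogram of the log2 differences (Folr1-/- minus Folr1+/+, signal + 16) of the 7436 tested genes, with the number of genes on a log axis and vertical lines at 4 Zic genes. Zic1 at -2.82 and Zic5 at -1.26 lay in the left tail, and Zic4 at -0.46 and Zic2 at -0.41, which were too dim to test, lay nearer the centre.

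The 5 arrays as a whole set the background for these values. Of 7436 tested genes 1114 (15%) passed an adjusted p of 0.05, 609 (8.19%) higher and 505 (6.79%) lower in the Folr1-/- arrays. With each array centred on its median the calls were 733 higher and 361 lower. Leaving out an array gave 363 calls (Folr1-/- replicate 1), 668 (Folr1-/- replicate 2) and 643 (Folr1+/+ replicate 3). Folr1 itself averaged 46.0 ± 5.95 in Folr1-/- (SD, n = 2), against 49.1 ± 8.44 in Folr1+/+ (SD, n = 3), with an adjusted p of 0.858. Which part of Folr1 the allele lacks is not stated, so the labels of the arrays could not be checked with it. Xist, made in female cells, averaged 595 ± 248 (SD) in Folr1-/-, against 30.02 ± 5.39 in Folr1+/+, so a difference in sex and one in genotype cannot be told apart.

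Markers of other tissues differed between the same arrays, on which 8.19% of all tested genes rose and 6.79% fell. All 16 tested genes of visceral endoderm and yolk sac rose, led by the apolipoprotein gene Apoa4 at 3.18 ± 0.19, and their summed signal was 18117 to 18124 in the Folr1-/- arrays, against 2588 to 3624 in the Folr1+/+ arrays. Of 7 tested primitive red cell genes 6 fell and 0 rose, with a summed signal of the list of 217 to 626 in the Folr1-/- arrays, against 5437 to 6394 in the Folr1+/+ arrays. All 3 tested trophoblast and decidua genes rose, while the trophoblast gene Tpbpa lay at 9.13 to 13.8 in Folr1-/-, against 1.96 to 12.8 in Folr1+/+. The part of these markers in the Zic values was not tested. In whole embryos fewer cells that make a transcript and less of it per cell cannot be told apart.

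The genes whose profile over the 5 arrays was nearest to that of Zic1 are described next. Likeness was measured as the root mean square difference, on the log2(signal + 16) scale, between profiles centred on each gene's own mean. The nearest were Nr2f1, a nuclear receptor gene of the neural tube (0.22), Sox10, a neural crest transcription factor gene (0.25), Slc4a1, the red cell anion exchanger gene (0.31), Hba-x, an embryonic alpha-type globin gene (0.33), and Hes5, a Notch target gene of neural progenitors (0.45). Nr2f1 averaged 19.4 ± 6.05 in Folr1-/- (SD, n = 2), against 194 ± 11.7 in Folr1+/+ (SD, n = 3). Sox10, Slc4a1 and Hba-x averaged 5.12, 9.72 and 16.2 in Folr1-/-, within the range of the low-signal genes. These 3 passed the brightness filter through their Folr1+/+ signals. With the mean of probe sets Sox10 had a log2 difference of -1.49 instead of -2.71, and Slc4a1 was too dim to test. All 5 nearest genes were low in both Folr1-/- arrays and high in all Folr1+/+ arrays. Since they were picked for likeness to Zic1, that pattern follows from the choice. They are known as genes of neural tissue, crest and blood, but which tissue gave their signals in whole embryos was not tested.

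The neighbours Zic1 and Zic4 differed by 1.19 on this measure, and the neighbours Zic2 and Zic5 by 0.52. Zic2 and Zic4 lay within the range of the low-signal genes. These values therefore do not show whether neighbours changed alike. Zic2 and Zic4 differed by 0.34. The nearest to Zic2 were Pik3r4, Ccnl1, Gdi2, Rhoj and Nf2 (0.060 to 0.077), and the nearest to Zic4 were Ap5s1, Irf7, Fadd, Cyp51 and Yipf7 (0.038 to 0.072). None of these 10 passed the limma test, with adjusted p values of 0.0965 to 0.317. They were picked for likeness to profiles with small differences between the groups, so this follows from the choice.

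**Figure D3:**
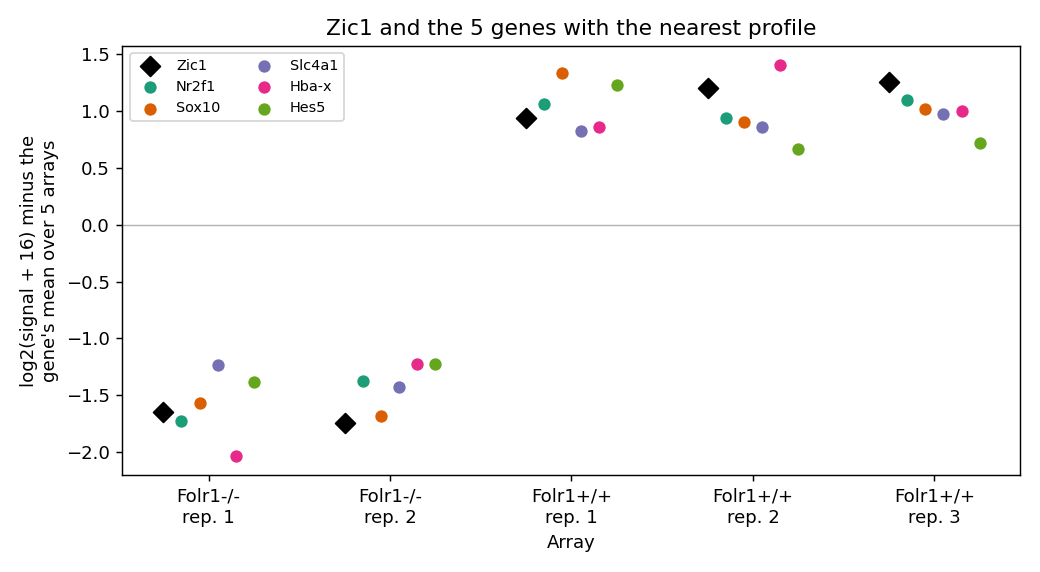
Values of log2(signal + 16) minus the gene's own mean over the 5 arrays, for Zic1 (black diamonds) and the 5 genes with the nearest profile, with the 2 Folr1-/- arrays left of the 3 Folr1+/+ arrays. All 6 genes lay below their mean on both Folr1-/- arrays and above it on all Folr1+/+ arrays, which for the 5 follows from their being picked for likeness to Zic1.

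Of the other genes beside the Zic genes on the chromosome, few could be tested. Plscr1, a phospholipid scramblase gene on the far side of Zic4, had signals of 177 and 188 on the Folr1-/- arrays, against 92.4, 101 and 70.9 on the Folr1+/+ arrays. It rose, with a log2 difference of 0.94 ± 0.19 (SE) and a limma adjusted p of 0.00577, opposite in sign to Zic1. Averaged over its probe sets, Plscr1 had 0.59 (limma adjusted p = 0.0494). Its call was lost when Folr1-/- replicate 1 (0.98, adjusted p = 0.0589) or Folr1-/- replicate 2 (0.90, adjusted p = 0.0579) was left out. Pcca, which encodes a propionyl-CoA carboxylase subunit and lies beyond Zic2, had a log2 difference of 0.063 ± 0.17 (adjusted p = 0.833), and Tm9sf2, beyond Zic5, had 0.063 ± 0.19 (adjusted p = 0.852). Adamts7 and Clybl were too dim to test.

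Among the zinc finger relatives of the Zic factors, 3 of 4 tested genes fell and 0 rose. Over all tested genes 6.79% fell and 8.19% rose. The median log2 difference of the relatives was -0.64, against -0.020 over all tested genes. Besides Zic5 the relatives that fell were Gli2, the main activator of hedgehog target genes, and Glis2, a Gli-like factor. Gli2 had signals of 238 and 307 on the Folr1-/- arrays, against 460, 414 and 494 on the Folr1+/+ arrays (-0.72 ± 0.17, SE, adjusted p = 0.0133). Glis2 had 209 and 196 on the Folr1-/- arrays, against 289, 325 and 310 on the Folr1+/+ arrays (-0.57 ± 0.15, adjusted p = 0.0289). The groups of both genes were apart. Gli1, itself a hedgehog target, had 49.2 and 54.1 on the Folr1-/- arrays, against 45.7, 51.7 and 43.7 on the Folr1+/+ arrays, and did not pass (0.10 ± 0.19, adjusted p = 0.754). The calls of Gli2 and Glis2 were lost on leaving out Folr1-/- replicate 1 (-0.54 and -0.61) or Folr1+/+ replicate 3 (-0.66 and -0.56), with 1 call left, Zic5. Leaving out Folr1-/- replicate 2 (-0.52) or Folr1+/+ replicate 2 (-0.53) also ended the call of Glis2, as did median centring (-0.49, adjusted p = 0.0559) and the mean of its probe sets (-0.49, adjusted p = 0.0532).

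Among genes of proteins described as binding Zic factors, 1 of 16 tested rose, 2 fell and 13 did not pass (median 0.0032), near the 15% called over all tested genes. Cdx2, a caudal-type factor of the tail and the yolk sac, rose by 0.89 ± 0.23 (adjusted p = 0.0252), with signals of 190 and 285 on the Folr1-/- arrays, against 162, 92.8 and 110 on the Folr1+/+ arrays. Kpna1, an importin gene, fell (-0.73 ± 0.15, adjusted p = 0.00825), with 441 and 372 on the Folr1-/- arrays, against 616, 736 and 702 on the Folr1+/+ arrays. The third was Gli2. The genes of the DNA repair complex reported with Zic2 (Prkdc, Xrcc5, Xrcc6, Parp1 and Dhx9) had differences of -0.21 to 0.18 and did not pass.

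These calls rested on few arrays. Only 1 call was left on leaving out Folr1-/- replicate 1, Folr1-/- replicate 2 or Folr1+/+ replicate 3. Cdx2 was past the threshold in none of the fits that left out Folr1-/- replicate 1 (1.16), Folr1-/- replicate 2 (0.61), Folr1+/+ replicate 2 (0.73) or Folr1+/+ replicate 3 (0.84). Kpna1 had -0.61 without Folr1-/- replicate 2 and was not past it there. Averaged over all its probe sets, Cdx2 had 0.36 and Kpna1 -0.38, and neither passed, nor did Cdx2 without the filter (adjusted p = 0.0806). Pou5f1, the gene of a pluripotency factor in this list and too dim on average to test, had signals of 70.0 and 49.9 on the Folr1-/- arrays, against 3.55, 1.05 and 0.964 on the Folr1+/+ arrays, and is named after its values were seen.

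Genes described as Zic targets went both ways. Of 6 tested, 2 rose, 1 fell and 3 did not pass (median 0.12), beside 8.19% higher and 6.79% lower over all tested genes. Apoe, an apolipoprotein gene whose human promoter binds ZIC1 and ZIC2, had signals of 326 and 426 on the Folr1-/- arrays, against 40.5, 65.5 and 59.7 on the Folr1+/+ arrays (2.46 ± 0.21, adjusted p = 2.05e-05). Foxa2, a factor of endoderm, node and floor plate, had 163 and 164 on the Folr1-/- arrays, against 63.8, 60.2 and 81.6 on the Folr1+/+ arrays (1.10 ± 0.18, adjusted p = 0.00211). Pax3, a factor of the dorsal neural tube and somites, had 26.8 and 28.2 on the Folr1-/- arrays, against 88.6, 84.7 and 91.0 on the Folr1+/+ arrays (-1.26 ± 0.18, adjusted p = 0.000844). Apoe and Foxa2 are also made in visceral endoderm, whose markers rose on the same arrays by a median of 2.49. The part of that tissue in the values of Apoe and Foxa2 was not tested. Pax3 passed the brightness filter through its Folr1+/+ signals. Without Folr1+/+ replicate 2 the list had 5 calls among 7 tested.

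Dorsal neural tube genes, which share the expression domain of the Zic genes, also split. Among 9 tested genes, 2 fell, 2 rose and 5 gave no call (median -0.40), against 6.79% lower and 8.19% higher over all tested genes. Msx3, a homeobox gene of the dorsal neural tube, had signals of 18.6 and 22.8 on the Folr1-/- arrays, against 96.9, 78.5 and 92.7 on the Folr1+/+ arrays (-1.52 ± 0.19, adjusted p = 0.000347), and the other gene that fell was Pax3. Msx1, a homeobox gene of the roof plate, limb buds and face, rose by 0.70 ± 0.20 (adjusted p = 0.0394), and Bmp6, a bone morphogenetic protein gene, by 0.81 ± 0.24 (adjusted p = 0.040). Wnt1, a signal from the dorsal midline, had 12.1 and 23.8 on the Folr1-/- arrays, against 50.9, 24.0 and 65.0 on the Folr1+/+ arrays, and did not pass (-0.85 ± 0.30, adjusted p = 0.0763). Msx3 and Pax3 passed the brightness filter through their Folr1+/+ signals, and Bmp6 through its Folr1-/- signals.

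The 2 rises depended on single arrays and on the processing. Msx1 was not past the threshold without Folr1-/- replicate 1 (0.62), Folr1-/- replicate 2 (0.77), Folr1+/+ replicate 1 (0.66) or Folr1+/+ replicate 2 (0.54). Bmp6 was not past it without Folr1+/+ replicate 2 (0.76) or Folr1+/+ replicate 3 (0.68). Without either Folr1-/- array Bmp6 was too dim to test, and the list had 2 calls. With all arrays kept, Msx1 had an adjusted p of 0.0535 after quantile normalization, 0.0519 without an intensity trend and 0.0931 without the filter, and Bmp6 had 0.109 without the filter.

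Ventral neural tube and hedgehog response genes were mostly too dim, with 5 of 13 tested, of which 1 rose, 2 fell and 2 did not pass (median 0.10). The shares over all tested genes were 8.19% higher and 6.79% lower. The gene of this list that rose was Foxa2. Ntn1, the axon guidance gene netrin 1, fell, with signals of 45.5 and 51.6 on the Folr1-/- arrays, against 166, 97.6 and 146 on the Folr1+/+ arrays (-1.21 ± 0.22, adjusted p = 0.00332). Spon1, a floor plate matrix gene, had -0.87 ± 0.19 (adjusted p = 0.00986). With the mean of probe sets Ntn1 had -0.83 and Spon1 -0.60, and both still passed. Ptch1, the hedgehog receptor gene, had 1723 and 3047 on the Folr1-/- arrays, against 1997, 1951 and 1594 on the Folr1+/+ arrays, and did not pass. Without Folr1-/- replicate 1 the calls of Ntn1 (-1.15) and Spon1 (-0.62) were lost and 1 call was left.

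General neural progenitor genes fell in 13 of 16 tested, with 0 higher and 3 not passing (median -1.02). Over all tested genes 6.79% were lower and 8.19% higher. The progenitor list was chosen with the lower neural genes of these arrays already known, so its direction is not independent evidence. Nr2f1 had the most negative difference in it, -2.58 ± 0.19 (adjusted p = 6.73e-06), followed by Hes5 at -2.17 ± 0.21 (adjusted p = 5.69e-05). Pax6, a factor of eye and neural tube, had signals of 25.4 and 18.6 on the Folr1-/- arrays, against 146, 127 and 91.8 on the Folr1+/+ arrays (-1.84 ± 0.22, adjusted p = 0.000225). Sox2, which keeps neural progenitors undifferentiated, had 73.5 and 117 on the Folr1-/- arrays, against 288, 335 and 291 on the Folr1+/+ arrays (-1.55 ± 0.19, adjusted p = 0.00030). Like Zic5, the genes Nr2f1, Hes5 and Pax6 passed the brightness filter through their Folr1+/+ signals. Their Folr1-/- means were 19.4, 21.6 and 22.0. The list ran from -2.58 to 0.39, with Zic5 at -1.26 inside it and Zic1 at -2.82 outside it. So wide a range does not show whether either gene went with the list.

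Holoprosencephaly genes, the group to which Zic2 belongs, fell in 6 of 14 tested, with 2 higher and 6 not passing (median -0.40). Beside this, 6.79% of all tested genes were lower and 8.19% higher. Gas1, a hedgehog co-receptor gene, had signals of 267 and 241 on the Folr1-/- arrays, against 587, 820 and 927 on the Folr1+/+ arrays (-1.53 ± 0.19, adjusted p = 0.00030). The Notch ligand gene Dll1 had -1.44 ± 0.17 (adjusted p = 0.000225) and the forebrain gene Otx2 -1.36 ± 0.20 (adjusted p = 0.000742). Foxh1, a transcription factor gene of the Nodal pathway, rose by 1.65 ± 0.22 (adjusted p = 0.000505), with 186 and 110 on the Folr1-/- arrays, against 35.9, 32.7 and 35.3 on the Folr1+/+ arrays. The other gene that rose was Lrp2, the megalin gene, also a gene of the endoderm list. Averaged over probe sets, Gas1 had -0.80 and Foxh1 1.09, and both still passed. Shh, the ligand itself, was at the level of the low-signal genes on all arrays. Leaving out Folr1-/- replicate 2 or Folr1+/+ replicate 3 gave 5 calls each.

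Genes of the dorsal somites and paraxial mesoderm, where Zic genes are also made, fell in 6 of 8 tested, with 0 higher and 2 not passing (median -1.12). The shares of all tested genes were 6.79% lower and 8.19% higher. Meox1, a homeobox gene of the somites, had signals of 29.3 and 69.8 on the Folr1-/- arrays, against 114, 257 and 200 on the Folr1+/+ arrays (-1.66 ± 0.32, adjusted p = 0.00454), and without Folr1-/- replicate 1 it did not pass (-1.20). Tcf15, which shapes somite epithelium, had 33.4 and 33.3 on the Folr1-/- arrays, against 129, 108 and 136 on the Folr1+/+ arrays (-1.50 ± 0.18, adjusted p = 0.000277). Pax3, described with the targets, and Foxc2, a forkhead gene of paraxial mesoderm (-1.17 ± 0.18, adjusted p = 0.00138), completed the largest differences. Myf5, a muscle factor reported as activated by Zic proteins with Gli2, was dim on all arrays, at 2.50 and 0.297 on the Folr1-/- arrays, against 4.48, 6.51 and 11.5 on the Folr1+/+ arrays.

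**Figure D4:**
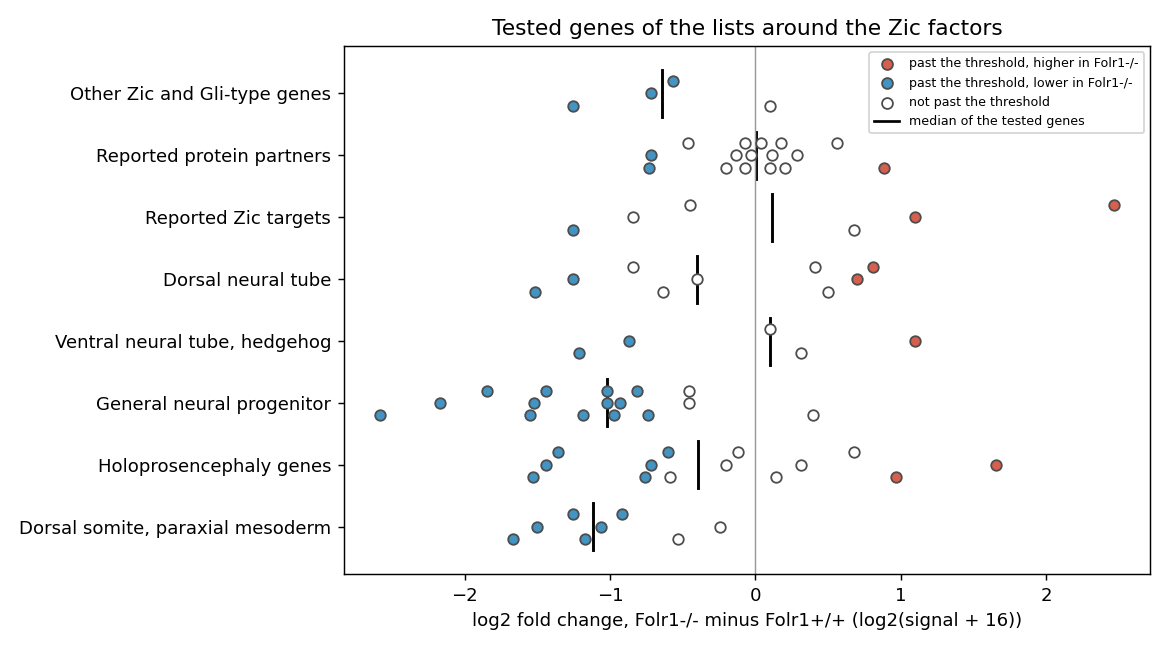
Log2 difference (Folr1-/- minus Folr1+/+, signal + 16) of each tested gene in the 8 lists around the Zic factors, filled where past an adjusted p of 0.05, with the median of each list as a black bar. The medians ran from -1.12 (dorsal somite) and -1.02 (general neural progenitor) to 0.12 (reported targets), and a gene in several lists is drawn in each.

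Counting each gene of the 8 lists only 1 time, 67 were tested, of which 30 fell, 7 rose and 30 gave no call. That is 44.8% lower and 10.4% higher, beside 6.79% lower and 8.19% higher over all tested genes. The lists were chosen with earlier results of these arrays known, and no test of a list was made.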

How the data were processed

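RNA of whole embryos, amplified in 2 rounds per the labels' protocols, was hybridised to Affymetrix Mouse Genome 430A arrays. The authors deposited MAS5 signal intensities per probe set, per the submitters' processing notes, and their scaling was kept. No MAS5 version is stated. Amplification favours 3' ends of transcripts.

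Of 22690 probe sets, 64 were controls, 20380 had 1 symbol, 691 several and 1555 were not listed in the platform annotation. Of several probe sets of a gene, the brightest on average in log2(signal + 16) was used. Genes under the 40th percentile were left out, leaving 7436, tested with limma 3.58.1 in R 4.3.3 (intensity trend, Benjamini-Hochberg, adjusted p of 0.05, 3 residual degrees of freedom). The filter used the mean over all 5 arrays, so a gene dim in a group could pass it through the other group. The few arrays limit the precision.

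The members, 8 gene lists and 4 marker lists were chosen with earlier results of these data known. From each list up to 4 called genes with the largest difference are named, and others beside their counts.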

Additional observations from a re-analysis of the deposited data

How the results depend on the processing

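The log2 difference of Zic1 lay between -2.92 and -2.76 with each array left out in turn and was -4.06 with a pseudocount of 1 and -1.61 with 64. That of Zic2 was -0.79 with a pseudocount of 1 and -0.17 with 64, and that of Zic4 was -0.89 and -0.19, and -0.30 with the mean of probe sets. Differences of Zic1, Zic2 and Zic4 kept their sign in all 14 alternatives, which for Zic4 used its brighter probe set or the mean of both. Its second probe set, 1421539_at, was not recomputed alone. On that probe set Folr1-/- replicate 2 (16.8) lay above every Folr1+/+ array, so the sign for Zic4 is not settled. Leaving out 1 array gave 363 to 1017 calls in all, 219 to 579 higher and 144 to 438 lower, and with no filter 311 were lower. With 1 Folr1-/- array left, that array is assumed to vary like the others. Calls per list with 1 array left out were 1 to 3 for the other Zic and Gli-type genes, 1 to 3 for partners, 3 to 5 for targets, 2 to 3 for dorsal, 1 to 3 for ventral and 5 to 8 for holoprosencephaly genes. With the filter at the 60th percentile there were 1 dorsal, 8 neural progenitor, 5 holoprosencephaly and 3 somite calls, of 3, 8, 9 and 3 tested. With no filter there were 2 dorsal calls, and with the mean of probe sets 1 call each for the other Zic and Gli-type genes and the partners.

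With the replicate number as a block, where Folr1+/+ replicate 3 adds nothing to the comparison, 899 genes were called, 535 higher and 364 lower, and Zic1 had -2.76. Same-numbered arrays of the groups did not deviate together (correlations of 0.019 and -0.056), so the numbers were not treated as pairs. The block lost the calls of Bmp6 (0.68) and Glis2 (-0.56). Over 28 named genes, 341 of 374 recomputed values kept call and direction, 33 lost the call and 0 reversed. Settings in which a gene was too dim to test are not counted. All 28 had passed in the main fit, so a call could not be gained. Zic5 kept its call wherever tested, and lay below the filter at the 60th percentile and with the mean of probe sets. Detection calls, not used here, would bear on Zic2 and Zic4.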
